A study of Mus musculus with 48 samples.

Results

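The major urinary protein cluster was followed here through 8 rows of a liver gene count table: Mup12, Mup15, Mup16, Mup17, Mup3, Mup20, Mup21 and Gm16002. They were picked by symbol from 22353 rows, and earlier results on the difference between KO and WT livers had drawn attention to them, so that difference, and any call on it, is given below as a description and supports nothing. All 8 rows passed the filter on low counts, as did 13646 rows in all. The livers came from 48 female C57BL/6J mice. The KO mice, 23 in number, lacked Bmal1 (gene symbol Arntl, an activator of the circadian clock) in adipocytes, and the 25 WT mice served as controls; the Cre driver is not given in the sources used here. Collection was every 4 h over a day, from ZT0 to ZT20, with 4 KO and 4 WT mice at each time except ZT16, which had 3 KO and 5 WT mice. All mice had spent 1 day in constant darkness and had been fasted for 24 h. Age ranged from 28.75 to 105.0 weeks in both genotypes and averaged 58.1 ± 17.3 weeks in KO mice and 60.9 ± 19.2 weeks in WT mice (SD, n = 23 and 25). Body weight averaged 24.2 ± 3.57 g in KO mice and 21.8 ± 1.997 g in WT mice (SD, n = 23 and 25). Both measures varied with collection time. Mean age in both genotypes was 65.125 weeks at ZT4 and 42.125 weeks at ZT20. At ZT16 it was 60.3 weeks in KO and 73.4 weeks in WT mice. Mean weight was 26.425 g in KO and 23.225 g in WT mice at ZT0, and 20.15 g and 20.35 g at ZT20.

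Major urinary proteins are small lipocalins, barrel-shaped carriers made mainly by the liver, secreted into blood and filtered into urine, where they bind pheromones and release them slowly. Their genes form a tandem array of near-identical copies and pseudogenes on mouse chromosome 4. Their transcription in liver is known to respond to the pulse pattern of growth hormone, to glucocorticoids and thyroid hormone and to nutrition, and in most strains it is higher in males. Mup20, also called darcin, is the male pheromone that attracts females. In the file, Gm16002 carries an identifier that GENCODE M21 assigns to Mup-ps12, an unprocessed pseudogene.

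In mm9 coordinates, as the file gives them, the rows lie on chromosome 4 in the order Mup12 (60732255 to 60736198), Mup15 (60961073 to 61100775), Gm16002 (61113276 to 61115984), Mup16 (61176624 to 61180563), Mup17 (61252961 to 61256903), Mup20 (61711268 to 61715192), Mup3 (61744510 to 61748376) and Mup21 (61808966 to 61811897). The Mup15 row overlaps the Mup14 row by 3979 bases. The coding sequences show how alike the copies are. Mup12, Mup15, Mup16 and Mup17 differed from each other at 3 to 8 of 543 coding bases (98.5% to 99.4% identity, GENCODE M21 transcripts). The file's identifiers of Mup12, Mup15 and Mup17 have no transcript in that release, so these genes were matched by symbol. Their sequences here and below may differ from the gene models that were counted. Mup3 was 82.5%, Mup20 90.8% and Mup21 84.6% identical to Mup17, and Mup3 and Mup21 were 94.1% identical to each other. The window of 60 coding bases with the most variable columns (25) is shown 5′ to 3′ on the gene's strand, from GENCODE M21 on GRCm38.p6, and capitals mark bases that differ from Mup17.
Mup12: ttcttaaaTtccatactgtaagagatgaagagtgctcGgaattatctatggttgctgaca
Mup15: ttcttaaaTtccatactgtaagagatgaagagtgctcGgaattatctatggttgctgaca
Mup16: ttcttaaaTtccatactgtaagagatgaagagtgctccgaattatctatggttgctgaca
Mup17: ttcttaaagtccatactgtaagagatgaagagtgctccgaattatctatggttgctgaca
Mup3: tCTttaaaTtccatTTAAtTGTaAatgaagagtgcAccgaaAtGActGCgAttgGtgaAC
Mup20: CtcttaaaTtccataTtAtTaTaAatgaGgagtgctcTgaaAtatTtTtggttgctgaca
Mup21: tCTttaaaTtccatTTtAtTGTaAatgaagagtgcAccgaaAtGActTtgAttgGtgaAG
Mup12 and Mup15 had the same letters in this window and differed from Mup17 at 2 bases. Mup16 differed from Mup17 at 1 base. Mup20 differed at 12, Mup21 at 19 and Mup3 at 21.

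A read can be given to one of these genes only if it covers a difference. Of the 50-base words in the annotated transcripts of each gene, none of those of Mup15 was absent from every other gene, against 8.29% for Mup16, 14.6% for Mup12, 21.9% for Mup17, 23.6% for Gm16002, 49.5% for Mup20, 80.7% for Mup21 and 86.7% for Mup3. With 100-base words the shares were 2.66% for Mup15, 17.6% for Mup16, 22.5% for Mup12, 40.6% for Mup17, 56.4% for Gm16002, 61.2% for Mup20, 95.5% for Mup21 and 97.8% for Mup3. The read length and the treatment of reads that match several genes are not given in the sources used here, so the counts of Mup12, Mup15, Mup16, Mup17 and Gm16002 are uncertain as measures of single genes, while those of Mup3 and Mup21 rest mostly on sequence of their own.

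Leaving Alb aside, library totals ran from 12842000 to 13009800 counts, with a median of 12929300. Levels are CPM, which relate a row's count to the TMM-scaled total of its library. Arntl in whole liver averaged 18.04 ± 13.2 CPM in KO mice and 18.4 ± 14.1 CPM in WT mice (SD, n = 23 and 25), with a log2 difference of 0.30 (SE 0.162, edgeR adjusted p = 0.347). Since the deletion was in adipocytes, this level does not check the genotype labels. Xist had 3029 to 13969 counts in every library and Eif2s3y, Kdm5d and Uty at most 1. The 10 hepatocyte markers summed to 29502 to 73687 CPM in KO livers (median 50795) and 33512 to 70711 CPM in WT livers (median 52140). The 8 neutrophil markers reached 576 CPM in KO ZT20 replicate 1, 463 in WT ZT0 replicate 3, 166 in WT ZT12 replicate 4 and 121 in WT ZT16 replicate 3, against a median of 6.65 over the 48 libraries. The 8 exocrine pancreas markers reached 349 CPM in KO ZT0 replicate 2, against a median of 8.01. The 7 adipocyte markers summed to 6.07 to 83.6 CPM in KO livers (median 18.03) and 8.77 to 50.1 CPM in WT livers (median 16.8), and the 7 Kupffer cell and macrophage markers found to 96.6 to 535 CPM (median 268) and 105 to 981 CPM (median 227) in KO and WT livers. Of the 9 salivary and lacrimal gland markers 2 were found, at 231 to 707 CPM (median 481) in KO livers and 171 to 672 CPM (median 430) in WT livers. Only 1 of these 2 passed the filter on low counts, so the sum rests mainly on 1 row and is no measure of gland RNA. In none of these lists was a gene that was found at 0 in all libraries. In bulk RNA, fewer cells of a type and less RNA per cell cannot be told apart.

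**Figure D1:**
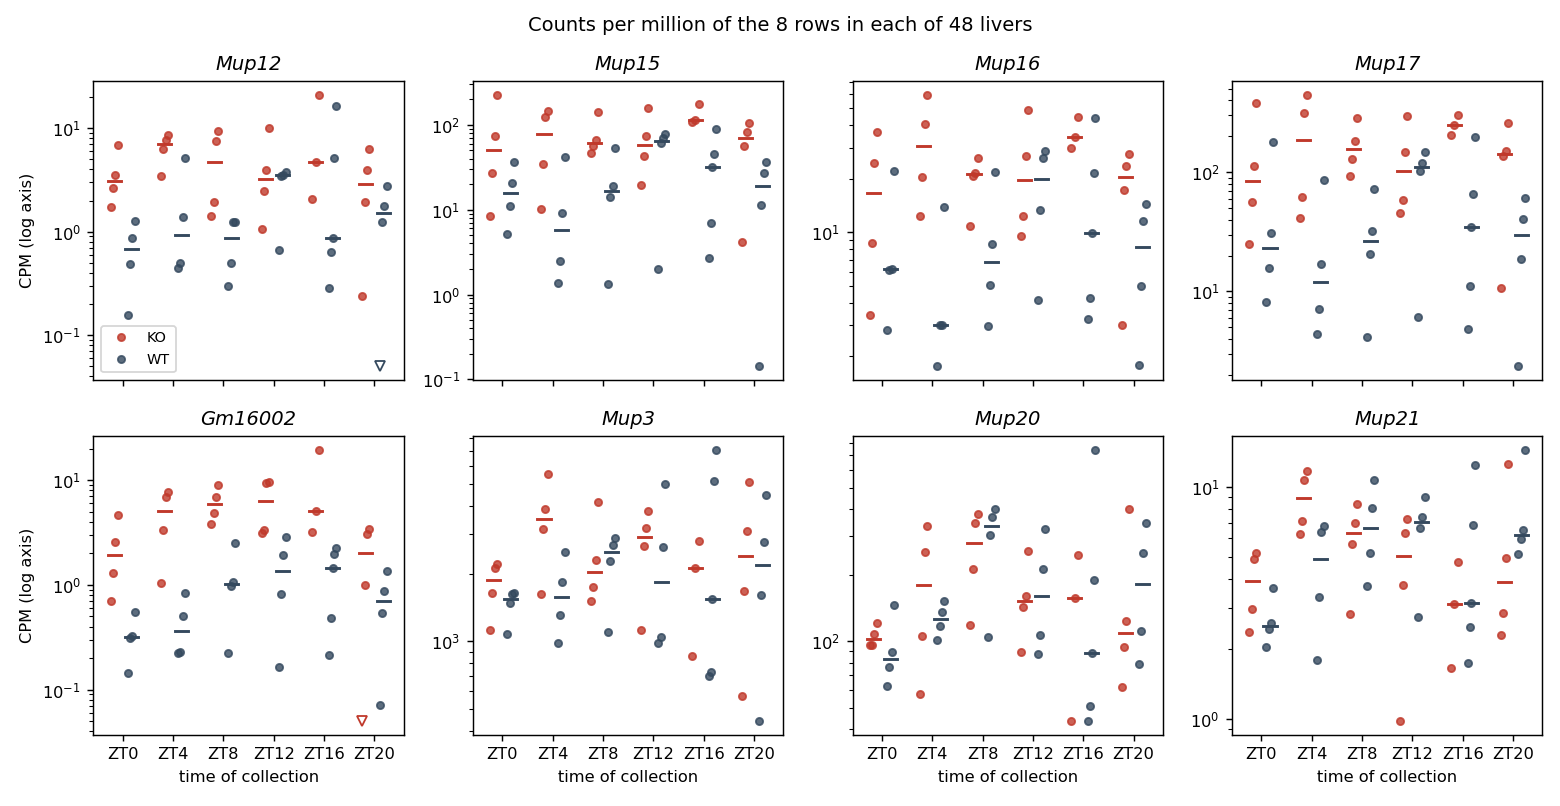
CPM (log axis) of each of the 8 rows in every liver, KO (red) left of WT (grey) at each collection time; points are mice, bars are medians, and an open triangle at 0.05 CPM marks a count of 0. KO points lie above all WT points for Gm16002 at 5 of 6 times, while the points of Mup3, Mup20 and Mup21 overlap at every time.

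Gm16002, the pseudogene row, was the member with the largest difference between genotypes. At ZT0 it had 4.64, 1.29, 2.59 and 0.702 CPM in KO livers, against 0.551, 0.326, 0.315 and 0.144 CPM in WT livers. At ZT4 it had 3.35, 1.05, 6.90 and 7.65 CPM in KO livers, against 0.843, 0.229, 0.224 and 0.502 CPM in WT livers. At ZT8 it had 4.90, 8.97, 6.96 and 3.82 CPM in KO livers, against 0.223, 2.51, 1.06 and 0.975 CPM in WT livers. At these 3 times every KO liver was above every WT liver. At ZT12 the KO livers had 9.41, 3.16, 9.59 and 3.38 CPM and the WT livers 2.86, 0.823, 1.91 and 0.166 CPM. At ZT16 the KO livers had 3.19, 5.04 and 19.6 CPM and the WT livers 0.482, 2.26, 0.216, 1.44 and 1.98 CPM. Again no KO liver reached down to the WT range. At ZT20 the KO livers had 0, 3.45, 1.00 and 3.07 CPM and the WT livers 0.876, 0.535, 1.37 and 0.0716 CPM, and the groups overlapped, with the KO liver at 0 (replicate 1) being the one high in neutrophil markers. The mean difference over the 6 times was 2.49 on the log2 scale (SE 0.335). The counts behind these levels were low, from 0 to 240 reads per library.

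The 4 nearly identical coding genes were also higher in KO livers on average, with wide spread in both genotypes. Mup17 ranged from 10.7 to 447 CPM in KO livers (median 147) and from 2.36 to 197 CPM in WT livers (median 30.8), with a mean log2 difference of 1.89 (SE 0.443). Mup15 ranged from 4.18 to 227 CPM in KO livers (median 73.2) and from 0.143 to 89.9 CPM in WT livers (median 18.9), with a mean log2 difference of 1.78 (SE 0.450). The KO mean exceeded the WT mean at all 6 times for both rows, yet the ranges were disjoint at 2 times for Mup17 and at 1 time for Mup15. Over all tested rows, 16.7% had disjoint ranges at 1 or more of the 6 times, 1.66% at 2 or more and 0.022% at 5 or more, as Gm16002 had. Mup12 ranged from 0.237 to 21.2 CPM in KO livers (median 3.92) and from 0 to 16.3 CPM in WT livers (median 1.24), with a mean log2 difference of 1.59 (SE 0.392). Mup16 ranged from 2.998 to 59.6 CPM in KO livers (median 23.6) and from 1.76 to 43.9 CPM in WT livers (median 6.22), with a mean log2 difference of 1.22 (SE 0.324). Their KO means too exceeded the WT means at all 6 times, and the ranges were disjoint at 2 times for Mup12 and at none for Mup16.

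The more divergent genes had mean differences over the 6 times within 1 SE of 0. Mup3 ranged from 573 to 5542 CPM in KO livers (median 2216) and from 442 to 7105 CPM in WT livers (median 1616), with a mean log2 difference of 0.20 (SE 0.257). Mup20 ranged from 43.4 to 401 CPM in KO livers (median 124) and from 43.5 to 743 CPM in WT livers (median 118), with a mean log2 difference of -0.06 (SE 0.268). Mup21 ranged from 0.975 to 12.5 CPM in KO livers (median 4.91) and from 1.74 to 14.5 CPM in WT livers (median 5.21), with a mean log2 difference of -0.08 (SE 0.225). For these 3 genes KO and WT livers overlapped at every time, and the sign of the difference varied. At ZT4 the log2 difference was 1.10 (SE 0.633) for Mup3, 0.57 (SE 0.655) for Mup20 and 0.97 (SE 0.543) for Mup21. At ZT16 it was -0.66 (SE 0.661) for Mup3, -0.58 (SE 0.687) for Mup20 and -0.75 (SE 0.586) for Mup21. Mean age differed between the genotypes at ZT16, as given above.

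Read against all rows, 5 of the 8 members (Gm16002, Mup12, Mup15, Mup16 and Mup17) were past an adjusted p of 0.05 for KO minus WT over all times, all higher in KO livers, where 1.4% of all 13646 rows were past it in either direction and 0.623% were higher. This contrast chose the members, so the count supports nothing. Of the members past the threshold Mup16 was nearest to it, and none of Mup3, Mup20 and Mup21 was near it. KO mice were heavier. With body weight in the model 1 of the 8 (Gm16002, log2 2.38, SE 0.390) was past the threshold, where 0.271% of all rows were past it. The log2 differences of Mup12, Mup15, Mup16 and Mup17 were then 1.42 (SE 0.483), 1.93 (SE 0.530), 1.45 (SE 0.382) and 1.996 (SE 0.526). Without weight in the model their SEs were 0.392, 0.450, 0.324 and 0.443. The part of weight in the result was not tested further. Single mice also decided calls: Mup16 was past the threshold in 20 of 48 fits that each left out 1 library, Mup15 in 44 and Mup12 in 45, against 48 for Mup17 and Gm16002. Mup15 was lost without KO ZT0 replicate 1, KO ZT4 replicate 3, KO ZT4 replicate 4 or KO ZT12 replicate 1, and Mup12 without KO ZT12 replicate 3, KO ZT16 replicate 3 or KO ZT20 replicate 2. Without the 5 libraries high in neutrophil or pancreas markers the 5 members stayed past it, where 1.31% of all rows were past it.

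At single times no member was past the threshold. The background was 0.0147% of rows at ZT0, 0.0366% at ZT4, 0.022% at ZT16 and 0% at ZT8, ZT12 and ZT20. The log2 difference of Mup17 was 1.29 (SE 1.07) at ZT0, 2.92 (SE 1.131) at ZT4, 2.42 (SE 1.11) at ZT8, 0.54 (SE 1.05) at ZT12, 1.997 (SE 1.06) at ZT16 and 2.19 (SE 1.10) at ZT20. Single livers moved these values: at ZT0 the value was 0.15 without KO ZT0 replicate 1 and 2.98 without WT ZT0 replicate 3, at ZT4 it was 4.50 without WT ZT4 replicate 1, at ZT12 it was -0.16 without KO ZT12 replicate 1 and 0.85 without KO ZT12 replicate 2, and at ZT16 it was 3.08 without WT ZT16 replicate 4. Whether the difference varied with time was tested by the interaction of genotype with time, which the rule did not use: 0 of 8 members passed it (lowest edgeR adjusted p = 0.953; unadjusted p from 0.216 to 0.885), against a background of 0.00733%.

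**Figure D2:**
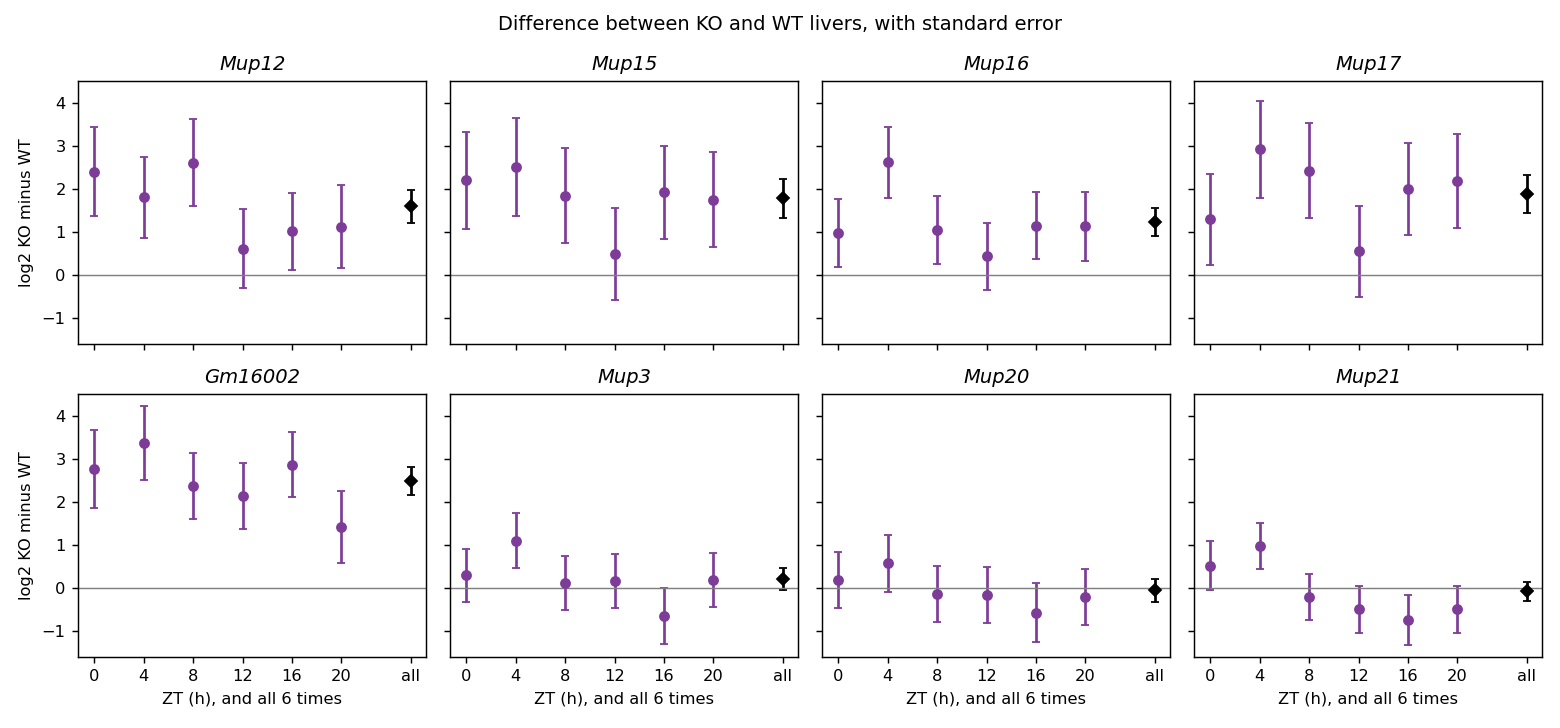
Log2 difference KO minus WT (edgeR) of each row at each collection time (circles, ZT in h) and as the mean over the 6 times (diamond), with its standard error. Gm16002, Mup12, Mup15, Mup16 and Mup17 sit above 0 at all times, Mup3, Mup20 and Mup21 on both sides of it.

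Age and weight differed between collection times, and the 24 h fits below, without either as covariate, do not separate them from time of day. No member had a 24 h rhythm past the threshold in either genotype, where 17% of all rows were rhythmic in KO livers and 16.3% in WT livers. Gm16002 came nearest (edgeR adjusted p = 0.0809 in KO livers and 0.0920 in WT livers). Its fitted amplitude on the log2 scale was 0.93 in KO livers and 1.05 in WT livers in the count model, and 1.11 (SE 0.371) in KO livers and 0.74 (SE 0.286) in WT livers by least squares on log2 CPM. Amplitudes of the other rows also depended on the fit. Mup12 had 0.27 in KO livers and 0.95 in WT livers in the count model (edgeR adjusted p = 0.849 and 0.154), and 0.35 (SE 0.380) in KO and 0.70 (SE 0.418) in WT livers by least squares. Mup17 had 0.08 in KO livers and 0.50 in WT livers in the count model (edgeR adjusted p = 0.989 and 0.608), and 0.34 (SE 0.411) in KO and 0.57 (SE 0.536) in WT livers by least squares. For Mup3 the order of the genotypes turned, with 0.22 in KO livers and 0.48 in WT livers in the count model (edgeR adjusted p = 0.759 and 0.325), and 0.31 (SE 0.245) in KO and 0.24 (SE 0.288) in WT livers by least squares. The difference in rhythm between genotypes was past the threshold for 0 of 8 members (lowest unadjusted p = 0.0856, for Mup21; edgeR adjusted p = 1.000), against a background of 0.00733%. Among rows of the family outside the 8, Mup11 had an amplitude of 0.29 in KO livers (edgeR adjusted p = 0.796) and was past the threshold in WT livers (amplitude 1.63, peak at ZT15.8, edgeR adjusted p = 0.00252), where least squares on log2 CPM gave an amplitude of 0.72 (SE 0.459), under 2 SE.

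Levels were also set against body weight and age within groups, 2 measures the rule did not use. No member passed for weight (background 0%; lowest unadjusted p = 0.0445, for Mup21 at -0.13 log2 per g, edgeR adjusted p = 0.746). For age, where 0.0366% of rows passed, no member did either. The slopes of 7 of 8 members were below 0. The share of all rows with such a slope is not given here and the members vary together, so this count supports nothing. Mup3 changed by -0.29 log2 per 10 weeks (SE 0.0765, edgeR adjusted p = 0.238) and Mup20 by -0.29 (SE 0.0863, edgeR adjusted p = 0.405). Without KO ZT16 replicate 3 both passed the threshold, at -0.42 and -0.47 per 10 weeks. This mouse was 105.0 weeks old, while KO ZT16 replicates 1 and 2 were 38.0 weeks old, so it weighs heavily in the slopes.

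Livers of one group differed widely in these rows, and the members varied together. The standard deviation within groups on log2 CPM was 1.97 for Mup15, 1.74 for Mup17, 1.42 for Mup12, 1.22 for Mup16, 1.18 for Gm16002, 0.98 for Mup3 and Mup20, and 0.81 for Mup21. WT ZT16 replicate 4 held the highest level of Mup3 and Mup20, and WT ZT20 replicate 4, at 28.75 weeks of age, the lowest of Mup12, Mup15, Mup17 and Mup3 but the highest of Mup21. Deviations from group means were correlated over the 48 livers in 25 of 28 pairs of members (permutation test within groups, two-sided, 100000 permutations, Benjamini-Hochberg over the 28 pairs). Mup15 and Mup17 had r = 0.96 and rho = 0.98 (permutation adjusted p = 4e-05 for both), and r = 0.96 without the 2 livers farthest in Mup15. Among Mup12, Mup15, Mup16 and Mup17, r ran from 0.67 to 0.96. Mup3 and Mup20 had r = 0.82 and rho = 0.81 (permutation adjusted p = 4e-05 for both), and r = 0.83 without the 2 farthest livers. Mup21 was least tied to the rest, with r from 0.22 to 0.49. Of the pairs, 12 passed within KO livers and 19 within WT livers. Shared deviations were common in these livers: of all 93099835 pairs of tested rows, 19.9% had an r at or above 0.35, the lowest r of the 25 pairs, and the median r was -0.002. Rows that share sequence can share reads, whose part in these correlations was not tested.

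**Figure D3:**
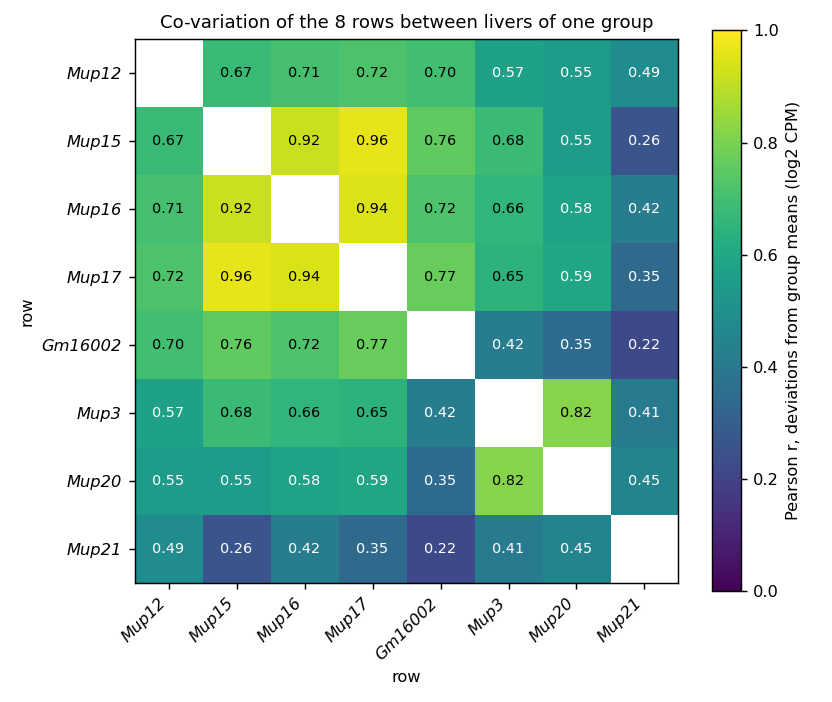
Pearson r between the 8 rows over 48 livers, computed on deviations of log2 CPM from the group mean; rows and columns are the members and colour gives r. Mup15, Mup16 and Mup17 form the block with r of 0.92 to 0.96, and Mup3 and Mup20 pair at 0.82.

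Since the rows share sequence mostly with each other, all 22 rows named Mup and a number or Gm16002 were summed. The sum made up 0.473% ± 0.203 of the TMM-scaled total without Alb in KO livers and 0.361% ± 0.239 in WT livers (SD, n = 23 and 25). Its log2 difference was 0.41 (SE 0.229). Mup3 gave 57.1% and Mup10 32.4% of the family's counts over all libraries, in reads and not per length. The 5 rows Mup12, Mup15, Mup16, Mup17 and Gm16002 together made up 6.01% ± 3.67 of the sum in KO livers and 2.38% ± 2.15 in WT livers. They were grouped for their higher KO levels, so the larger KO share follows from that choice and supports nothing. Shares of one sum also depend on each other. The lower KO share of Mup3 below stands beside a log2 difference of 0.20 in its own level. Mup3 made up 51.8% ± 9.11 in KO livers and 60.2% ± 9.26 in WT livers, Mup10 made up 36.8% ± 7.19 in KO livers and 30.7% ± 8.60 in WT livers, and Mup20 made up 3.70% ± 1.69 in KO livers and 5.35% ± 2.72 in WT livers (SD, n = 23 and 25 in each case). Without Mup3 the sum's log2 difference was 0.70. Mup10, which is no member, was the largest row left in that sum, with a log2 difference of 0.67 (SE 0.214) of its own. The sum had no rhythm past the threshold in KO (edgeR adjusted p = 0.704) or WT livers (edgeR adjusted p = 0.268).

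**Figure D4:**
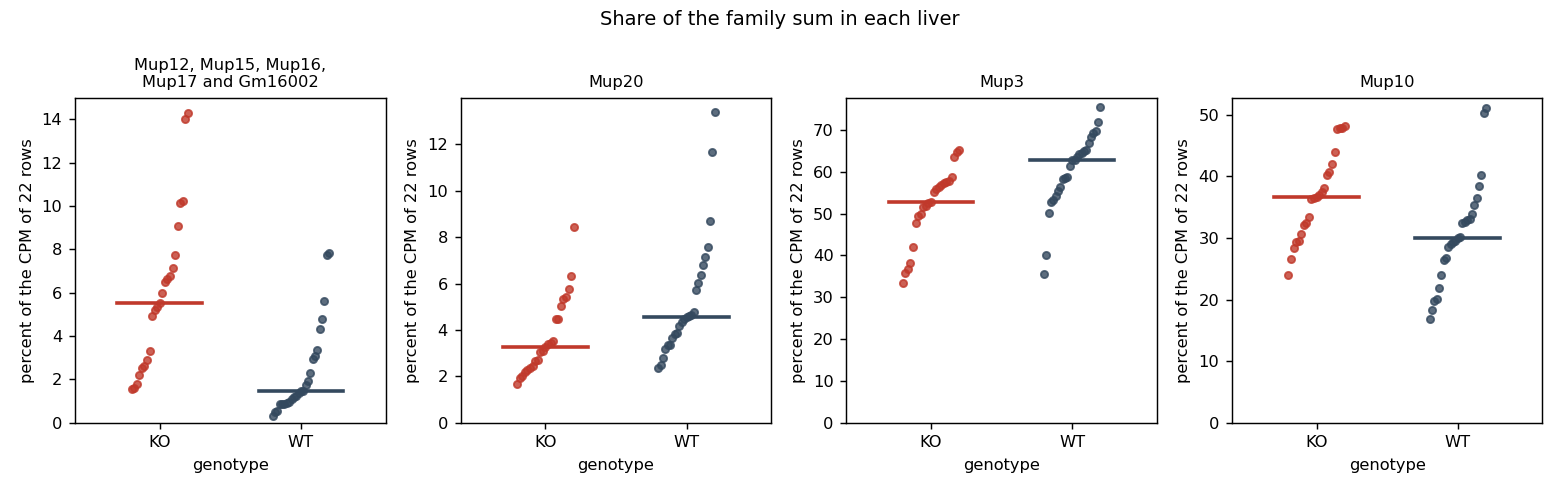
Percent of the CPM of the 22 family rows taken by the 5 rows with higher KO levels, by Mup20, by Mup3 and by Mup10 in each liver, KO (red) left of WT (grey); points are mice and bars medians. The 5 rows have medians of 5.53% in KO and 1.47% in WT livers, and Mup3 52.7% in KO and 62.8% in WT livers.

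Of the 8 other tested rows named Mup and a number, Mup1 (log2 1.68, SE 0.445, edgeR adjusted p = 0.0444) and Mup2 (log2 1.33, SE 0.314, edgeR adjusted p = 0.0198) rose in KO livers, at levels of 1.12 and 1.21 CPM in KO and 0.397 and 0.491 CPM in WT livers. Mup1 had at most 62 and Mup2 at most 42 reads in a library, and the Mup2 row overlaps the Mup7 row by 3089 bases. Their calls were not followed under the alternative settings. Mup10 (log2 0.67, edgeR adjusted p = 0.101), Mup19 (1.03, 0.0859), Mup14 (0.91, 0.182), Mup9 (0.78, 0.216), Mup11 (0.76, 0.304) and Mup7 (0.37, 0.467) did not pass. Of the 3 tested pseudogene rows, added after their values were seen, Mup-ps14 rose (log2 2.63, SE 0.416, edgeR adjusted p = 0.000314; at most 35 reads in a library), while Mup-ps10 (2.70, SE 0.830, 0.0905) and Mup-ps16 (1.36, SE 0.391, 0.0658) did not pass. These rows may share reads with the members. Of 12 tested neighbours outside the family within 500 kb, only Gm13775, whose span overlaps that of a family pseudogene row, passed (log2 1.01, SE 0.218, edgeR adjusted p = 0.0103; 0.0947 with body weight as covariate); the median of the 12 was 0.07.

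Promoters were in the RefSeq table (GRCm38.p6) for 4 of the 8 members: Mup15, Mup17, Mup3 and Mup21. Those of Mup17 and Mup3 are shown as one gene that was higher in KO livers and one whose mean difference was within 1 SE of 0, from 250 bases before to 50 after the annotated start, 5′ to 3′, with TATATAA in capitals.
Mup17, chr4:61595783-61596082, minus strand: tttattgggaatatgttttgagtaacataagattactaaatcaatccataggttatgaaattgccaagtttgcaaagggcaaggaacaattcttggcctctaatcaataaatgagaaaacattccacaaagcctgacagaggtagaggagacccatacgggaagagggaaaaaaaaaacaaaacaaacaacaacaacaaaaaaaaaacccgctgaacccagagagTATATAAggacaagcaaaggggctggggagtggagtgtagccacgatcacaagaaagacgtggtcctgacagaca
Mup3, chr4:62087268-62087567, minus strand: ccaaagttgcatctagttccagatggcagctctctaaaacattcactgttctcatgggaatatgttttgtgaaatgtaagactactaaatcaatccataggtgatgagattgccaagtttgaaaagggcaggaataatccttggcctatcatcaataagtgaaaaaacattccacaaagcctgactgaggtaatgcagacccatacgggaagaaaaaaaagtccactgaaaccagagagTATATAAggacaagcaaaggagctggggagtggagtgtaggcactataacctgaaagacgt
They were 76.9% identical, while those of Mup15 and Mup17 were 98.7% and those of Mup3 and Mup21 92.9% identical. TATATAA occurred once on the gene's strand in each of the 4 promoters, and on either strand in 3.24% of 32851 promoters of this length. TTCNNNGAA, the letters of the STAT5 motif, occurred in none of the 4 and in 8.30% of all.

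The lists chosen for the pathway are read against the 1.4% of all rows past the threshold. Of 18 tested genes of growth hormone signalling, the axis that sets sex-biased liver expression, 0 passed (median log2 0.02; all tested rows -0.0047). Of 14 factors reported to act on these genes 0 passed (median -0.08), the smallest p being that of Trim24 (0.25, edgeR adjusted p = 0.175). Of 16 tested male-biased genes 0 passed (median -0.10), the smallest p being that of Keg1 (0.55, edgeR adjusted p = 0.0971). Of 25 female-biased genes 2 rose and 0 fell (median 0.25): Cyp3a16 (log2 2.52, SE 0.592, edgeR adjusted p = 0.0198), at 55.1 ± 120 CPM in KO and 17.1 ± 55.7 CPM in WT livers, and its near copy Cyp3a41b (2.49, SE 0.578, edgeR adjusted p = 0.0174), at 4.27 ± 7.99 and 0.934 ± 2.95 CPM in KO and WT livers (SD, n = 23 and 25). Of 48 fits that each left out 1 library, both cytochrome P450 genes lost their call in 1, the fit without KO ZT20 replicate 2 (edgeR adjusted p = 0.0567 for Cyp3a16 and 0.0967 for Cyp3a41b). Both also lost it with body weight as covariate (edgeR adjusted p = 0.107 for Cyp3a16 and 0.117 for Cyp3a41b), and Cyp3a16 lost it with the replicate block (edgeR adjusted p = 0.0641). Of 9 tested lipocalins outside the cluster 0 passed (median -0.13), the smallest p being that of Ambp (-0.28, edgeR adjusted p = 0.207).

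Among 9727 genes outside the family, those whose deviations from group means were most like the family sum over the 48 livers were 4930480G23Rik (r = 0.81), Pdik1l (0.80), A530017D24Rik (0.79), Ugt2b1 (0.77) and Cgrrf1 (0.77). The lowest were G3bp1 (-0.73), Banf1 (-0.73), Brd3 (-0.72), Mmp14 (-0.71) and Atic (-0.71).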

How the data were processed

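Liver polyA RNA of 48 mice was sequenced with a stranded kit, per the labels' protocols, and reads were handled with CASAVA and STAR 2.4.1d on mm9, per the submitters' processing notes. The authors deposited 1 table of read counts, with genes in rows and livers in columns, per the file headers; the counting program, annotation, read length and treatment of reads matching several genes are not given in the sources used here. The Alb row was left out, since its values were not plain counts. Library totals of the deposited table lie within a narrow range. How this range arose was not examined, so the totals are no measure of sequenced depth. Precision is limited mainly for rows of few counts.

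Counts were analysed with edgeR 4.0.16 in R 4.3.3: filterByExpr (13646 of 22353 rows kept), TMM scaling (factors 0.892 to 1.11), quasi-likelihood tests on 12 group means, a 24 h cosine model per genotype, and slopes on weight and age within groups, with Benjamini-Hochberg adjustment over all rows and a threshold of 0.05. Log2 CPM used a prior count of 2. Amplitudes come from the count model and, with an SE, from least squares on log2 CPM. On simulated counts for 13646 genes, KO minus WT over all times recovered 100% of 25 genes changed by 1 on the log2 scale. Those genes were drawn at random and given the spread of the trend over all genes, and their median error was 0.098. Mup15 had an SE of 0.450 in the real data, so this recovery does not carry over to rows of such spread. Coding sequences and promoters were aligned with mafft 7.526. The members and gene lists were chosen with earlier results of these data known. Named genes were, by rule, all rows named Mup and a number, neighbours past the threshold, the genes of smallest p per list (1 of them is not reported here), and the 5 most and least like the family sum. Replicates are separate mice. KO and WT mice of the same replicate number had the same age in 22 of 23 pairs, but the labels name no shared litter or batch. Alternatives were DESeq2 1.42.0, no TMM, no filter, each library left out, a replicate block, weight or age as covariate, prior count 0.5, and, added after seeing the data, leaving out ZT16 or the libraries high in neutrophil or pancreas markers.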

Additional observations from a re-analysis of the deposited data

Results flagged for a closer look

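In 6 of 99 sets of 4 or 5 livers (the 8 members and the family sum in 11 groups), 1 liver lay far from the others of its group; chance marks about 1 in 20 such sets if values are normally distributed, which was not tested for these CPM. Mup12 had 0.665 CPM in WT ZT12 replicate 4, against 3.50 to 3.74 in the others, and this liver was high in neutrophil markers (166 CPM). Mup16 had 13.95 CPM in WT ZT4 replicate 1, against 1.76 to 3.01, and Mup17 had 85.5 CPM in the same liver, against 4.35 to 16.997. Mup17 had 180 CPM in WT ZT0 replicate 3, against 8.20 to 30.8; this liver too was high in neutrophil markers (463 CPM), and without the 5 libraries high in neutrophil or pancreas markers the log2 difference of Mup17 at ZT0 was 3.07. Mup20 had 743 CPM in WT ZT16 replicate 4, against 43.5 to 189. Mup21 had 14.5 CPM in WT ZT20 replicate 4, against 5.11 to 6.49. The part of other cell types in these values was not tested.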

How the results depend on the processing

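For KO minus WT over all times, the number of members past the threshold (5) was 1 with body weight as covariate, 3 without all ZT16 libraries, 4 with the replicate block or without a filter, and 3 to 5 when single libraries were left out. Over all rows, 191 were past it, against 356 with DESeq2, 190 without all ZT16 libraries and 127 with the replicate block. Without a filter 122 rows were past it, and with body weight as covariate 37. At ZT4 (0) the number of members was 1 with DESeq2 or without ZT16, and 0 to 3 when single libraries were left out. For rhythm in WT (0) it was 1 with DESeq2, 2 without the libraries high in neutrophil or pancreas markers, and 0 to 1 without single libraries; for rhythm in KO (0) it was 1 with body weight as covariate or without ZT16, and 0 to 1 without single libraries. For the age slope (0) it was 2 with DESeq2 and 0 to 2 without single libraries. The share of all rows past the threshold at ZT4, for the rhythms and for the age slope under these settings is not given here. These counts of members therefore support nothing. The family sum's age slope (-0.24 log2 per 10 weeks) ran from -0.35 to -0.20 without single libraries. Of the 28 pairs of members, 12 instead of 25 passed within KO livers. The cause of these changes was not tested. Slopes that turned, none past the threshold, were, for weight, Mup12 (-0.061) and Gm16002 (-0.18) with the replicate block, and Mup17 (0.014) and Mup20 (0.045) without ZT16; without single libraries Mup17 ran from -0.076 to 0.0088 and Mup20 from -0.14 to 0.00036. For age they were Mup12 (0.15) and Gm16002 (-0.019) without ZT16 and Mup12 (0.070) without the libraries high in markers; without single libraries Mup12 ran from -0.30 to 0.053 and Gm16002 from -0.12 to 0.097. Deviations of same-numbered KO and WT livers correlated above 0.1 in 14 of 23 pairs, and 12 correlated best with their own number, a hint from the data and not the design; with the replicate block Mup15 was not past the threshold (edgeR adjusted p = 0.0536) and Mup17 differed by 2.51 on the log2 scale. Depth limits Gm16002 and Mup12 most, which had 0 counts in 1 library each.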
